A study of Mus musculus with 12 samples.

Results

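The mitochondrial carriers of the Slc25 family were examined in hearts of C57BL/6J mice from 2 groups: 6 mice given carbon tetrachloride (CCl4), which injures the liver and served here to model cirrhosis, and 6 Control mice. The question behind the comparison is how a cirrhotic liver affects cardiac function. Members were taken by name, as all symbols made of Slc25a and a number (47 symbols among 31722), and kept when they reached 0.5 RPKM in at least 6 of the 12 hearts. RPKM counts the reads of a gene relative to its length and to the size of the library. Levels set side by side between genes therefore depend on the length taken for each gene. By this rule 36 carriers were kept and 11 were not. The labels give no age, sex, dose or collection time, the tissue is given only as heart, and no genetic change is named for either group.

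Carriers of this family are proteins of the inner mitochondrial membrane, built from repeats of paired membrane helices, that swap or co-transport metabolites, nucleotides, cofactors and phosphate between the cytosol and the matrix. In heart muscle the ADP/ATP carrier exports newly made ATP, the phosphate carrier feeds ATP synthase, and the carnitine/acylcarnitine carrier admits fatty acids for oxidation. A few members sit elsewhere, such as Slc25a17 in peroxisomes and Slc25a46 in the outer mitochondrial membrane.

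The libraries had a relative depth of 39787848 to 63490580 steps of the RPKM scale in CCl4 hearts and of 26404159 to 58038207 steps in Control hearts, where a step is the smallest amount a value changes by. The kept carrier with the fewest reads in any library, Slc25a14, held 25 steps there. All 7 cardiomyocyte markers were present in every heart, with a summed level of 18102 to 27970 RPKM in CCl4 hearts and 25474 to 31840 RPKM in Control hearts; the lowest was CCl4 replicate 3. Summed atrial markers were highest in CCl4 replicate 4 (11723 RPKM) and in Control replicate 1 (15045 RPKM), and that sum is mostly Nppa, which was also high in CCl4 replicate 3 (9552 RPKM). In Myl7, another atrial marker, CCl4 replicate 4 (307 RPKM) stood apart from the other CCl4 hearts (0.811 to 28.7 RPKM), and Control replicate 1 (419 RPKM) was above the other Control hearts (9.47 to 181 RPKM). The Y-linked Ddx3y was at 6.18 to 7.79 RPKM, and Xist near 0, in replicates 2 and 5 of both groups, and the reverse held in the other hearts, so each group held 2 male and 4 female hearts by these genes. The hepatocyte markers summed to at most 0.643 RPKM in CCl4 hearts and 0.516 RPKM in Control hearts. Reads of the mitochondrial genome and its nuclear copies made up 31.6% to 43.7% of reads in CCl4 libraries and 29.4% to 37.8% in Control libraries, which bears on all values scaled by library size. Summed endothelial markers were 214 to 271 RPKM in CCl4 hearts and 281 to 357 RPKM in Control hearts, with no overlap. That sum is mostly Fabp4, at 129 to 167 RPKM in CCl4 hearts and 152 to 222 RPKM in Control hearts. Fabp4, Pecam1, Cdh5 and Kdr each overlapped between groups, while Esam and Tie1 were lower without overlap. Of all genes tested 0.724% were lower without overlap. Summed fibroblast markers were 87.9 to 540 RPKM in CCl4 hearts and 80.3 to 214 RPKM in Control hearts, and macrophage markers 14.6 to 96.7 RPKM and 19.0 to 25.8 RPKM, both highest in CCl4 replicate 3. The part of these cell types in the results on carriers was not tested. In bulk tissue, fewer cells of a type and less RNA per cell cannot be told apart.

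The ladder of carrier levels ran from Slc25a4 to Slc25a14. In the mean of all 12 hearts 6 carriers lay above 10 RPKM, 21 between 1 and 10 RPKM and 9 below 1 RPKM. Slc25a4, the ADP/ATP carrier of heart and skeletal muscle, was at 885 ± 172 RPKM in CCl4 hearts and 1085 ± 113 RPKM in Control hearts (SD, n = 6 each). It supplied 81.7 ± 2.56% of the summed RPKM of all 47 symbols in CCl4 hearts and 83.7 ± 1.11% in Control hearts. Its mean over all hearts was 24.4 times that of the next carrier, Slc25a3. The merged exon length in GENCODE M21 is 2353 bases for Slc25a4 and 5550 bases for Slc25a3. In steps, the highest library of each held 147579 for Slc25a4 and 15927 for Slc25a3. The multiple, the share and the ranks thus depend in part on the lengths taken.

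**Figure D1:**
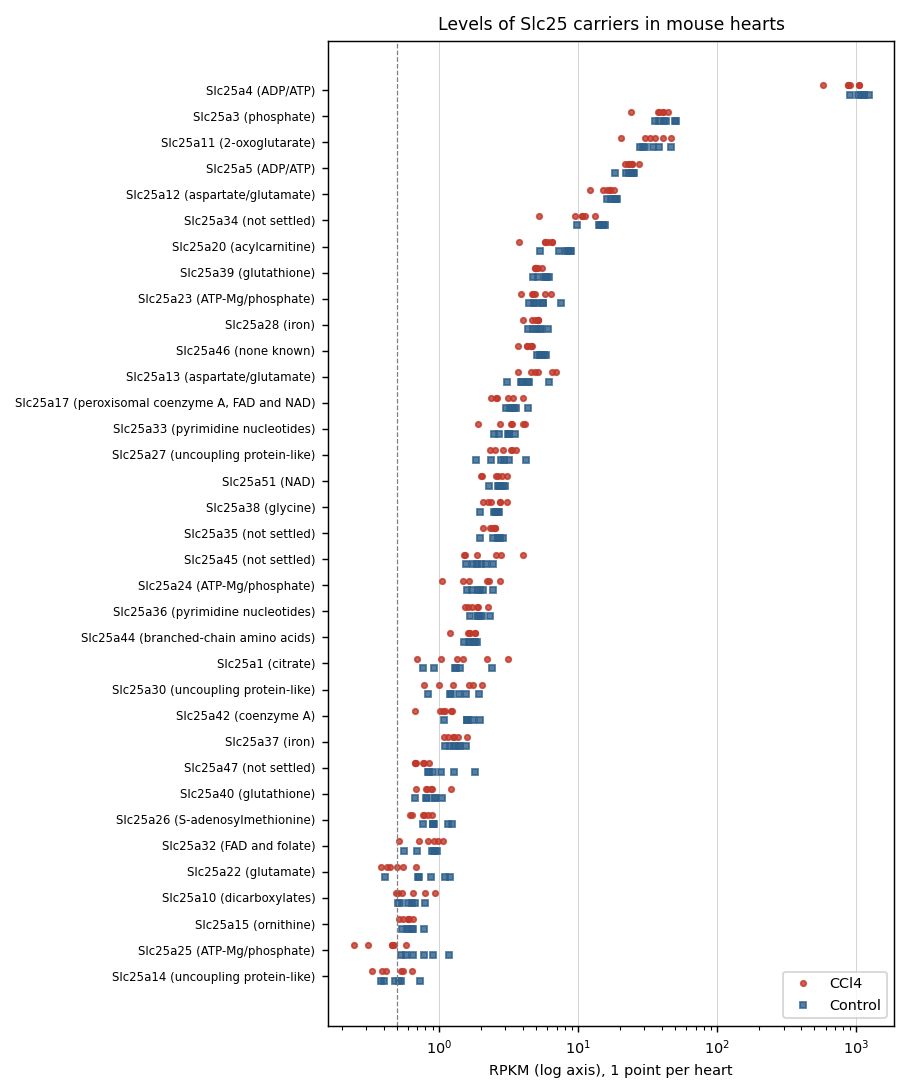
RPKM of the kept carriers described here, on a log axis, in order of mean level, with the substrate in brackets ("none known" for Slc25a46, "not settled" where no substrate is given here); circles are CCl4 hearts, squares Control hearts, and the dashed line is 0.5 RPKM. Slc25a4 stands alone with a mean of 985 RPKM over all hearts, and most carriers lie between 1 and 10 RPKM.

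Behind Slc25a4 came Slc25a3, the phosphate carrier, which also brings copper to cytochrome oxidase. It spanned 24.0 to 44.6 RPKM (median 39.5) in CCl4 hearts and 35.5 to 50.3 RPKM (median 42.0) in Control hearts. Its log2 fold change between groups was -0.19 (SE 0.14, limma adjusted p = 0.675), and -0.07 without CCl4 replicate 3. Slc25a11, which exchanges 2-oxoglutarate for malate in the malate-aspartate shuttle, spanned 20.5 to 46.4 RPKM (median 34.3) in CCl4 hearts and 27.8 to 46.8 RPKM (median 32.2) in Control hearts. The ranges of these carriers overlapped each other in both groups, so their order at ranks 2 and 3 is within the spread between hearts. Slc25a5, the ADP/ATP carrier of proliferating cells and a close paralog of Slc25a4, spanned 21.8 to 27.2 RPKM (median 23.8) in CCl4 hearts and 18.5 to 25.1 RPKM (median 23.9) in Control hearts. Slc25a12, the calcium-regulated aspartate/glutamate carrier of muscle and brain, spanned 12.2 to 18.1 RPKM (median 16.6) in CCl4 hearts and 16.1 to 19.1 RPKM (median 18.5) in Control hearts. Slc25a34, a carrier whose substrate is not settled, was the last above 10 RPKM.

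No carrier passed the test between groups. Over all 14087 genes that met the same minimum, limma with Benjamini-Hochberg adjustment called 0 (0% of genes tested), and 0 of the 36 carriers. At an unadjusted p under 0.05, 9 carriers (25% of 36) were lower in CCl4 hearts, against 8.58% of all genes tested, and 0 were higher, against 1.6% of all genes. Over the 36 carriers the median log2 fold change was -0.07, beside -0.05 over all genes tested, and 25 of 36 were negative, as were 65.7% of all genes tested. Fold changes here are CCl4 minus Control on log2(RPKM + 1), a scale that shrinks differences of weakly expressed genes. The 9 were Slc25a46, Slc25a42, Slc25a25, Slc25a22, Slc25a20, Slc25a47, Slc25a34, Slc25a26 and Slc25a4. In each of the 9 all 6 CCl4 hearts lay below the Control median, as they did in 12 of the 36 carriers and in 11.1% of all genes tested. Slc25a25 reached 0.5 RPKM in 1 of 6 CCl4 hearts and 6 of 6 Control hearts, and Slc25a22 in 2 of 6 and 5 of 6, so both entered the list through their Control values. Among the 34 carriers that reached the minimum in at least 3 CCl4 hearts, 7 were lower at that unadjusted p. The share of all genes under this added condition is not given here, and 8.58% is not its background.

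The count of 9 depends on how the libraries are scaled. Rescaled by median of ratios, by quantile normalization or without mitochondrially encoded RNA it was 5 (13.9% of 36). The shares of all genes tested were 5.62%, 5.84% and 4.2%. With TPM scaling it was 10 (27.8% of 36), against 10.6% of genes, and 32 of 36 carriers and 77.3% of genes were negative. The 5 were the same carriers under those first scalings: Slc25a22, Slc25a25, Slc25a42, Slc25a46 and Slc25a47. Of these, Slc25a22 and Slc25a25 entered the list through their Control values, which also limits the counts below that hold them. Without mitochondrially encoded RNA 1 of 36 carriers, Slc25a13, was higher at that p, against 4.56% of genes. Among genes with a mean of at least 2 RPKM 4 of 20 carriers (20%) were lower, against 9.82%. With limma's array weights, which give uneven libraries less weight, 11 carriers (30.6%) were lower at an unadjusted p under 0.05, against 20.2% of genes. There 9 of 36 carriers passed the adjusted p, all of them lower. Of all genes tested 10.5% passed as lower and 16% in either direction. At an unadjusted p under 0.05, 2 of 36 carriers (Slc25a32 and Slc25a45) were higher, against 11.9% of genes. The 9 were Slc25a4, Slc25a17, Slc25a20, Slc25a22, Slc25a25, Slc25a34, Slc25a42, Slc25a46 and Slc25a47. Without both libraries numbered 1, a choice made after seeing the data, 2 of 36 carriers (Slc25a22 and Slc25a42) passed the adjusted p, both lower. Of all genes tested 1.57% passed as lower and 2.29% in either direction. The pseudocount sets the size of the fold change of low carriers. At 0.1 in place of 1 the log2 fold change was -0.74 for Slc25a25, -0.60 for Slc25a22, -0.56 for Slc25a42, -0.51 for Slc25a47 and -0.33 for Slc25a26, each over 1.5 times its value below. Again 9 of 36 carriers were lower at an unadjusted p under 0.05, as were 1216 of 14087 genes. With the scaling without mitochondrially encoded RNA the median of the 36 carriers was 0.000927, beside 0.015 over all genes tested, and 17 of 36 were negative, as were 44.7% of genes.

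**Figure D2:**
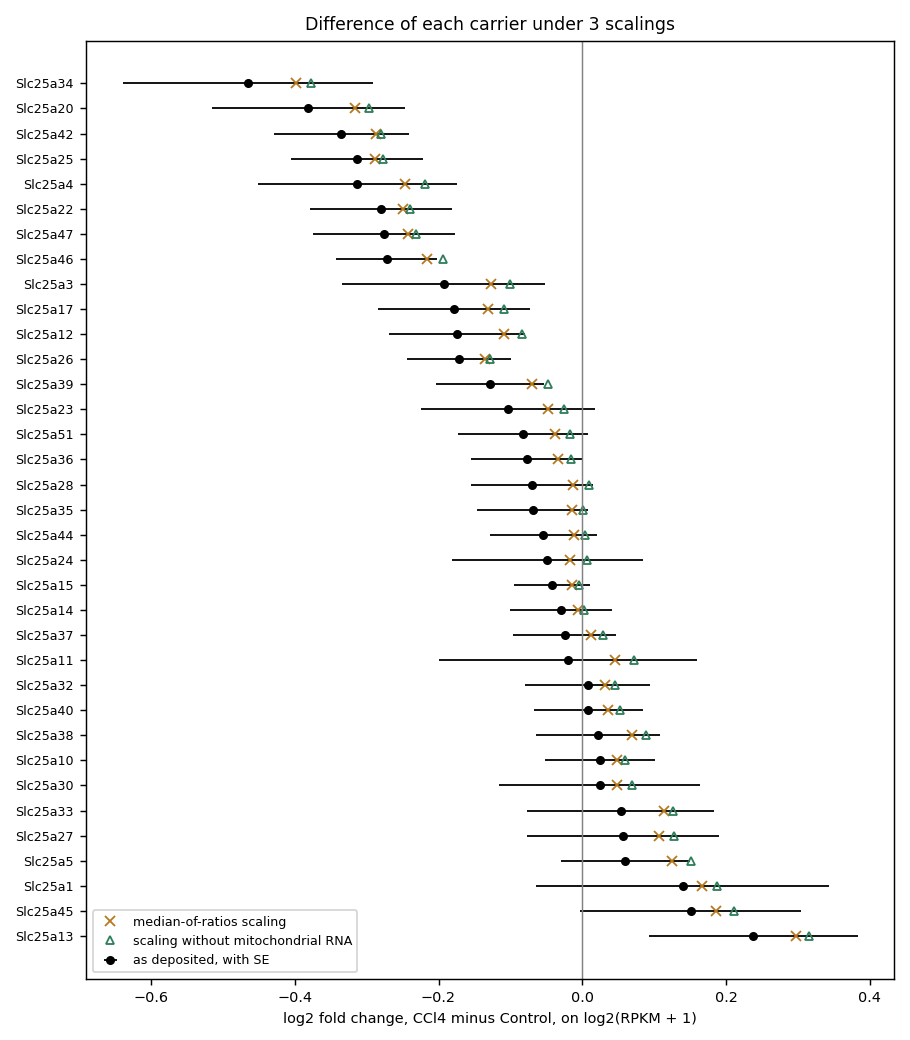
Log2 fold change (CCl4 minus Control, on log2(RPKM + 1)) of each carrier described here as deposited, with its SE as a bar, and with median-of-ratios scaling or scaling without mitochondrially encoded RNA. Both move all carriers drawn to the right, while TPM scaling, not drawn, moves them to the left (Slc25a34 to -0.54); the carriers at the top remain below 0 under all 3, while Slc25a11 lies near 0.

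The entry of fatty acids gave the first of the lower carriers by role. Slc25a20, the carnitine/acylcarnitine carrier that works between the carnitine palmitoyltransferases of the outer and inner membrane, spanned 3.73 to 6.53 RPKM (median 5.96) in CCl4 hearts and 5.29 to 8.83 RPKM (median 8.26) in Control hearts. The groups overlapped only through Control replicate 1, which held the lowest Control value. Its log2 fold change was -0.38 (SE 0.13, limma adjusted p = 0.363). It was -0.28 without CCl4 replicate 3, the lowest heart. The other fatty acid steps of the same route lay lower as well without passing: Cpt1b, the muscle form of the outer transferase, spanned 19.3 to 38.0 RPKM in CCl4 hearts and 33.7 to 51.7 RPKM in Control hearts. Cpt2, the inner transferase, was at 14.2 ± 4.56 RPKM in CCl4 hearts and 22.0 ± 4.18 RPKM in Control hearts (SD, n = 6 each). Their limma adjusted p-values were 0.229 and 0.299.

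Slc25a42, which brings coenzyme A into the matrix in exchange for adenine nucleotides, spanned 0.675 to 1.23 RPKM (median 1.09) in CCl4 hearts and 1.08 to 1.96 RPKM (median 1.602) in Control hearts. Again Control replicate 1 was the lowest Control heart, and the other 5 Control hearts lay above every CCl4 heart. The log2 fold change was -0.34 (SE 0.09, limma adjusted p = 0.264), and its unadjusted p was under 0.05 in all 23 alternatives in which it was tested. The same held for Slc25a25, Slc25a22 and Slc25a47. For Slc25a42 the limma adjusted p reached 0.5997 with the replicate block. Slc25a34 spanned 5.25 to 13.2 RPKM (median 10.7) in CCl4 hearts and 9.87 to 15.7 RPKM (median 14.7) in Control hearts. Its log2 fold change, -0.47 (SE 0.17, limma adjusted p = 0.376), was -0.31 without CCl4 replicate 3. It was the most negative of the 36 carriers with a pseudocount of 1, but not with 0.1 (-0.505), and on the linear scale its ratio of means, 0.721, was above that of Slc25a25, Slc25a22, Slc25a47 and Slc25a42 (0.544 to 0.661). Like Slc25a20 it kept an unadjusted p under 0.05 in 1 of the 4 other scalings.

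**Figure D3:**
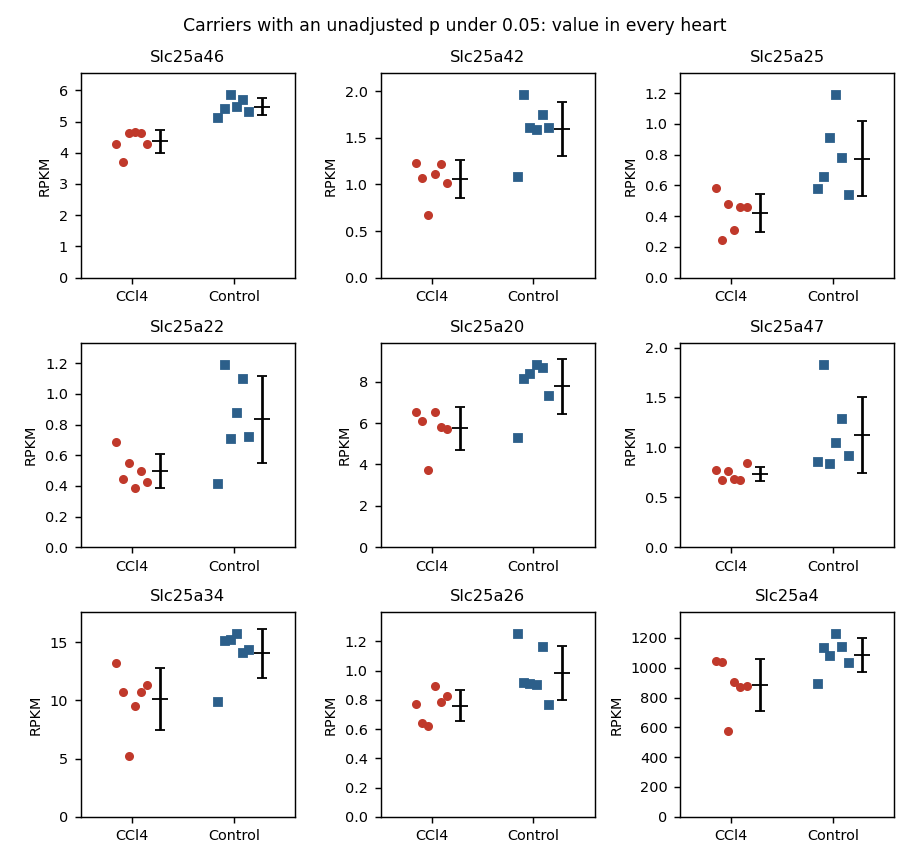
RPKM in every heart for the 9 carriers with an unadjusted p under 0.05, CCl4 hearts as circles and Control hearts as squares in order of replicate number, with mean and SD at the right of each group; all axes start at 0. The groups are separate in Slc25a46, and in Slc25a42, Slc25a20 and Slc25a34 Control replicate 1, the leftmost square, lies among the CCl4 hearts.

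Promoter windows are shown so that their sequence can be read beside these values. They belong to the most abundant carrier, the lower carriers of fatty acid, coenzyme A and ATP-Mg transport, and Slc25a34 of unsettled substrate. The windows come from RefSeq (GRCm38.p6) and run from 250 bases before to 50 bases after an annotated start, 5′ to 3′ on the strand of the gene. Capitals mark matches to the motifs searched. The Slc25a4 window lies on the minus strand at chr8:46211013-46211312, that of Slc25a20 on the plus strand at chr9:108661886-108662185 and that of Slc25a42 on the minus strand at chr8:70212232-70212531. The window of Slc25a34 lies on the minus strand at chr4:141623785-141624084, and that of the most internal of 3 starts of Slc25a25 on the minus strand at chr2:32424017-32424316.
Slc25a4: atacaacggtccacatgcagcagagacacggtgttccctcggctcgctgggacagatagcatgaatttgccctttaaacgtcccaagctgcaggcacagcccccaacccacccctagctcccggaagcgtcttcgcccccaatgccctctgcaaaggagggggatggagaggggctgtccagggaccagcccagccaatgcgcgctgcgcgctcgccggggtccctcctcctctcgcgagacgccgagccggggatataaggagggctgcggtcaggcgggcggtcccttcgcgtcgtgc
Slc25a20: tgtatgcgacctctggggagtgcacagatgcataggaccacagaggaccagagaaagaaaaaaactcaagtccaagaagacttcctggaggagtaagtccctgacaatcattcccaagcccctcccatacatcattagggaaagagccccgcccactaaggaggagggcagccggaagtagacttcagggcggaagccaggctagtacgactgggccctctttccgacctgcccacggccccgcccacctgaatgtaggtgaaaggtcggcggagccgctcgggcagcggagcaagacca
Slc25a42: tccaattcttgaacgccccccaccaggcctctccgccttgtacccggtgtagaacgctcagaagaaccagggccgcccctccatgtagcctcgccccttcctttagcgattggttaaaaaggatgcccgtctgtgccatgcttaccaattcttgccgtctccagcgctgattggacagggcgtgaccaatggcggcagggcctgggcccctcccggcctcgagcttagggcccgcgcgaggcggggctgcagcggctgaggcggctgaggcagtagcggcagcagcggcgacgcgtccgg
Slc25a34: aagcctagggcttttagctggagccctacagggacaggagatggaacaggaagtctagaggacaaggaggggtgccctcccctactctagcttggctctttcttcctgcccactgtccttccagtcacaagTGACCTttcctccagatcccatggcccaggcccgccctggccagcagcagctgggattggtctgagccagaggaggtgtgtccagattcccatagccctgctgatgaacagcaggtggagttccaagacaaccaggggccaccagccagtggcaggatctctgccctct
Slc25a25: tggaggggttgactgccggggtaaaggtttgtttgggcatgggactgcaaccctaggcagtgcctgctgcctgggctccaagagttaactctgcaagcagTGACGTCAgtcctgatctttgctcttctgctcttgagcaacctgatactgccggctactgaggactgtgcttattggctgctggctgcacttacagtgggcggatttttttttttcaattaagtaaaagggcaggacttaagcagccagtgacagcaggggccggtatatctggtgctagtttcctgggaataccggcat

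The motifs searched on both strands were the nuclear receptor half-site AGGTCA, the estrogen-related receptor element TNAAGGTCA, which contains that half-site, the E-box CACGTG, the cAMP response element TGACGTCA and the nuclear respiratory factor element. The Slc25a34 window holds the half-site on the opposite strand, 119 bases before the start. That half-site is in 4 of the 35 carrier windows (11.4%) and in 16.3% of all 32817 promoter windows. The Slc25a25 window holds the palindromic cAMP response element 150 bases before the start, while the windows of its other 2 starts hold none of the motifs. That element is in 2 of the 35 carrier windows, the other being of Slc25a36, and in 1.79% of all windows. None of these motifs occurs in the windows of Slc25a4, Slc25a20 and Slc25a42. Of the 36 carriers 27 had a window in the table, 35 windows in all. The E-box was in 7 of the 35 (20%, against 7.15% of all windows), of Slc25a1, Slc25a13, Slc25a14, Slc25a15, Slc25a33 and Slc25a36. None of these genes is among the 9 lower carriers, of which Slc25a46 and Slc25a26 had no window and could not be searched. Overlapping windows of Slc25a14 hold the same E-box, so this site is counted more than once. A match is a description of the letters only.

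Among carriers of adenine nucleotides, 5 of 8 were kept. Slc25a4 (chromosome 8, 46206797 to 46211284) spanned 572 to 1045 RPKM (median 892) in CCl4 hearts and 894 to 1225 RPKM (median 1108) in Control hearts. CCl4 replicates 1, 2 and 4 lay inside the Control range, and CCl4 replicate 3 far below all others. Its log2 fold change was -0.31 (SE 0.14, limma adjusted p = 0.452), and -0.19 without CCl4 replicate 3, where the unadjusted p was 0.064. Slc25a4 kept an unadjusted p under 0.05 in 3 of 12 fits with a heart left out and in 1 of the 4 other scalings. Slc25a5 (chromosome X, 36795651 to 36798807) differed by 0.06 (SE 0.09, limma adjusted p = 0.865), with 3 of 6 CCl4 hearts on each side of the Control median. Under TPM scaling this difference was -0.01. The ATP-Mg/phosphate carriers adjust the adenine nucleotide pool of the matrix in response to calcium. Slc25a25 spanned 0.244 to 0.584 RPKM (median 0.457) in CCl4 hearts and 0.536 to 1.19 RPKM (median 0.717) in Control hearts. Of the CCl4 hearts 5 of 6 lay below all Control hearts, and its mean in CCl4 hearts was 0.544 of the Control mean on the linear scale. The log2 fold change was -0.31 (SE 0.09, limma adjusted p = 0.279). Part of its exon sequence is shared with Naif1 on the opposite strand, and whether counting used strand is not known here. Slc25a23 was at 5.06 ± 0.878 RPKM in CCl4 hearts and 5.52 ± 1.09 RPKM in Control hearts, and Slc25a24 at 1.91 ± 0.6246 and 1.96 ± 0.299 RPKM (CCl4 and Control, SD, n = 6 each).

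Among the carriers of di- and tricarboxylates, 3 of 4 were kept and none had an unadjusted p under 0.05. Slc25a11 was at 34.4 ± 8.97 RPKM in CCl4 hearts and 34.4 ± 7.16 RPKM in Control hearts, with a log2 fold change of -0.02 (SE 0.18, limma adjusted p = 0.979), which turned to 0.05 with median-of-ratios scaling and to 0.12 without CCl4 replicate 3. Slc25a1, the citrate carrier that supplies lipid synthesis in the cytosol, spanned 0.695 to 3.14 RPKM in CCl4 hearts and 0.767 to 2.41 RPKM in Control hearts. Its highest hearts were CCl4 replicate 4 and Control replicate 1, which also had the highest Adipoq, a marker of fat cells, at 10.7 and 8.11 RPKM. The same hearts were the richest in atrial markers. CCl4 replicate 3, the next highest heart, had 2.20 RPKM of Slc25a1 and 0.842 RPKM of Adipoq. Control replicate 5, with 6.13 RPKM of Adipoq, had 1.32 RPKM of Slc25a1. The part of fat cells or of atrial tissue in this carrier's level was not tested. Slc25a10, which exchanges malate or succinate for phosphate, was at 0.654 ± 0.179 RPKM in CCl4 hearts and 0.622 ± 0.104 RPKM in Control hearts.

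Of 9 amino acid carriers 6 were kept. Slc25a12 lay under the median Control heart in all 6 CCl4 hearts, with a log2 fold change of -0.17 (SE 0.09, limma adjusted p = 0.548), and -0.10 without CCl4 replicate 3. Its paralog Slc25a13, also called citrin and best known from the liver urea cycle, was at 5.28 ± 1.20 RPKM in CCl4 hearts and 4.32 ± 1.02 RPKM in Control hearts. In 5 of 6 CCl4 hearts it lay above the Control median, the opposite side from Slc25a12. Slc25a22, a carrier of glutamate with a proton, spanned 0.384 to 0.689 RPKM (median 0.472) in CCl4 hearts and 0.412 to 1.19 RPKM (median 0.799) in Control hearts. Its lowest Control heart was replicate 1, which lay below 5 of the CCl4 hearts. The log2 fold change was -0.28 (SE 0.10, limma adjusted p = 0.362). Slc25a38, which takes glycine into the matrix for haem synthesis, was at 2.55 ± 0.374 RPKM in CCl4 hearts and 2.49 ± 0.267 RPKM in Control hearts. Slc25a44, a carrier of branched-chain amino acids, was at 1.62 ± 0.223 and 1.72 ± 0.141 RPKM, and the ornithine carrier Slc25a15 at 0.588 ± 0.0466 and 0.636 ± 0.0801 RPKM (CCl4 and Control).

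Cofactor carriers were the broadest class by the number kept, 8 of 9. Of the 8 kept 6 were negative, beside 65.7% of all genes tested. Slc25a42 and Slc25a26, 2 of the 8, were lower at an unadjusted p under 0.05, against 8.58% of genes. Slc25a26, which brings S-adenosylmethionine to the methyltransferases of the matrix, spanned 0.622 to 0.896 RPKM (median 0.778) in CCl4 hearts and 0.766 to 1.25 RPKM (median 0.914) in Control hearts. The log2 fold change was -0.17 (SE 0.07, limma adjusted p = 0.430), and it kept an unadjusted p under 0.05 in 8 of 12 fits with a heart left out; its exons overlap those of Lrig1 on the opposite strand. The glutathione carrier Slc25a39 was at 5.05 ± 0.226 RPKM in CCl4 hearts and 5.64 ± 0.562 RPKM in Control hearts, and its paralog Slc25a40 at 0.884 ± 0.185 and 0.869 ± 0.130 RPKM. Slc25a17 of the peroxisome membrane was at 3.02 ± 0.616 and 3.52 ± 0.459 RPKM, the NAD carrier Slc25a51 at 2.52 ± 0.432 and 2.71 ± 0.239 RPKM, and Slc25a32, linked to FAD and folate, at 0.840 ± 0.201 and 0.828 ± 0.162 RPKM (CCl4 and Control).

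Both mitoferrins, the iron carriers, were close between groups. Slc25a28, the form of most tissues, was at 4.83 ± 0.421 RPKM in CCl4 hearts and 5.13 ± 0.610 RPKM in Control hearts. Slc25a37, the form that dominates in red cell precursors, was at 1.29 ± 0.174 RPKM in CCl4 hearts and 1.32 ± 0.158 RPKM in Control hearts. The red cell gene Alas2, which starts haem synthesis there, was at 3.84 ± 1.16 RPKM in CCl4 hearts and 2.30 ± 0.684 RPKM in Control hearts (limma adjusted p = 0.310). The pyrimidine nucleotide carriers Slc25a33 (3.25 ± 0.837 RPKM in CCl4 hearts, 3.04 ± 0.388 RPKM in Control hearts) and Slc25a36 (1.82 ± 0.252 and 1.98 ± 0.217 RPKM) overlapped between groups. So did the uncoupling protein-like Slc25a27 (2.996 ± 0.499 RPKM in CCl4 hearts, 2.89 ± 0.806 RPKM in Control hearts), Slc25a30 (1.41 ± 0.482 and 1.36 ± 0.371 RPKM) and Slc25a14.

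Slc25a46 (chromosome 18, 31556111 to 31609911), an outer membrane member that acts in mitochondrial fusion and fission and has no known transported substrate, had the smallest p of the family. It spanned 3.70 to 4.67 RPKM (median 4.45) in CCl4 hearts and 5.11 to 5.84 RPKM (median 5.43) in Control hearts. All CCl4 hearts lay below all Control hearts, the only kept carrier of which this held, against 0.724% of all genes tested. In 0 carriers all CCl4 hearts lay above all Control hearts, against 0.0355% of genes. The log2 fold change was -0.27 (SE 0.07, limma adjusted p = 0.229), and between -0.33 and -0.19 over the 4 other scalings. Its unadjusted p was under 0.05 in all 24 alternatives, and its difference did not rest on CCl4 replicate 3 (-0.29 without it). With the replicate block its limma adjusted p reached 0.5997. Its exons overlap the opposite-strand gene B930094E09Rik.

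The remaining carriers have no settled substrate here. Slc25a47, known from liver, spanned 0.670 to 0.846 RPKM (median 0.721) in CCl4 hearts and 0.832 to 1.83 RPKM (median 0.976) in Control hearts. Of the CCl4 hearts 5 of 6 lay below all Control hearts, with a log2 fold change of -0.28 (SE 0.10, limma adjusted p = 0.363). The Control spread was wide, with replicate 2 highest. Slc25a35 was at 2.39 ± 0.174 RPKM in CCl4 hearts and 2.56 ± 0.322 RPKM in Control hearts and overlaps Rangrf. Slc25a45 spanned 1.52 to 3.99 RPKM in CCl4 hearts and 1.57 to 2.44 RPKM in Control hearts, with CCl4 replicates 3, 5 and 6 above all Control hearts and CCl4 replicates 2 and 4 below them. In fibroblast markers and in macrophage markers CCl4 replicates 3, 5 and 6 also had the highest sums among CCl4 hearts. Whether cells of either type bear on Slc25a45 was not tested.

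**Figure D4:**
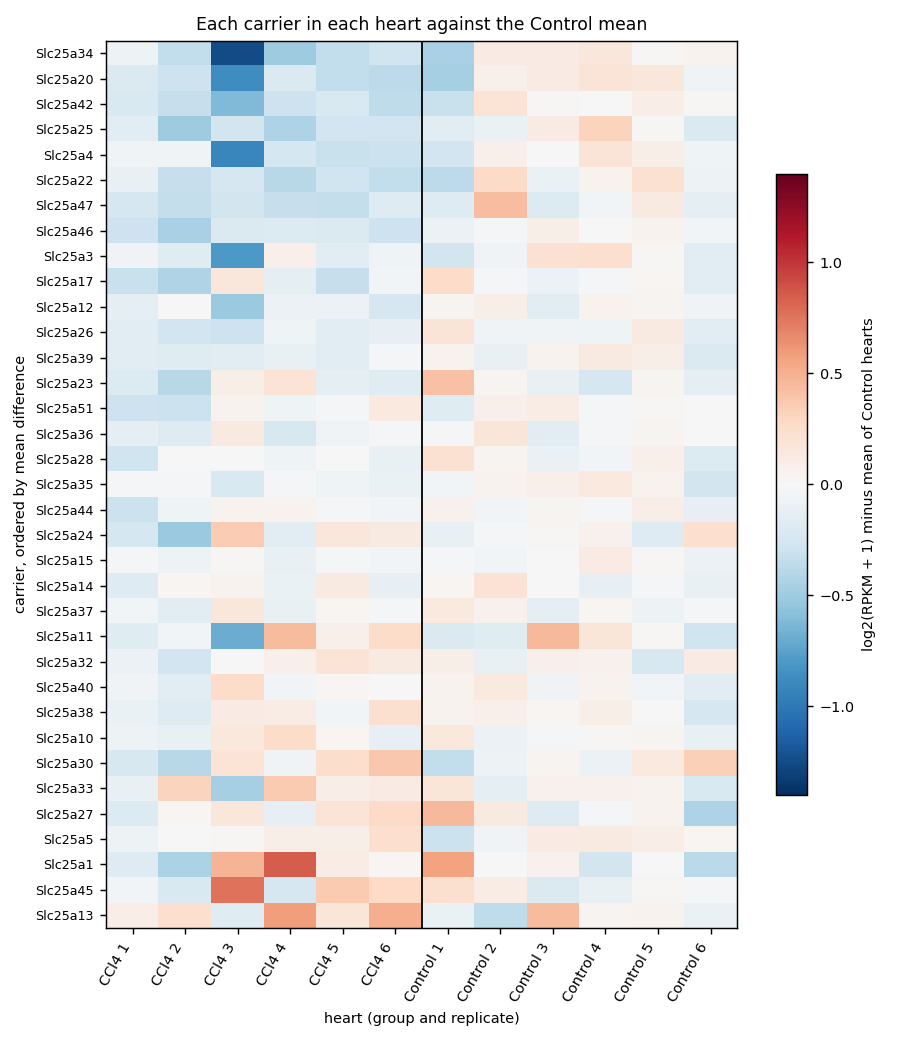
Log2(RPKM + 1) of each kept carrier described here (rows, ordered by mean difference) in each heart (columns) minus the mean of the Control hearts. Blue is below and red above that mean; CCl4 replicate 3 is the darkest blue column in Slc25a34, Slc25a20, Slc25a4 and Slc25a3, and Control replicate 1 is blue in several of the rows at the top.

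Hearts of a group differed unevenly. Of the 36 carriers 12 had their lowest CCl4 value in replicate 3 and 14 in replicate 2. CCl4 replicate 2 had the highest share of mitochondrial reads (43.7%), and the part of that share in these counts was not tested. CCl4 replicate 3 was the lowest CCl4 heart for 6 of the 7 most abundant carriers (Slc25a4, Slc25a3, Slc25a11, Slc25a12, Slc25a34 and Slc25a20). The exception was Slc25a5, lowest in CCl4 replicate 1 (21.8 RPKM) and at 23.2 RPKM in replicate 3. CCl4 replicate 3 also had the lowest sum of cardiomyocyte markers; the part of these cells in that pattern was not tested. The median coefficient of variation over the kept carriers was 18.5% in CCl4 hearts and 15.02% in Control hearts, and 24 of 36 varied more in CCl4 hearts. Shares over all genes are not given here for the counts of this paragraph, so they are not read as particular to carriers.

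The RPKM ratio of a pair of carriers that move the same or a like substrate is free of library scaling, but the tested log2 ratio with its pseudocount is not quite so for low carriers, and no other scaling was run for it. Differences in the mean log2 ratio (pseudocount 1) of 7 pairs were compared by an exact two-sided permutation test over all splits of the 12 hearts, with Benjamini-Hochberg adjustment over the 7. The RPKM of Slc25a4 was 24.7 to 47.9 times that of Slc25a5 in CCl4 hearts (median 36.5) and 43.5 to 51.5 times in Control hearts (median 47.5). CCl4 replicates 1 and 2 lay among the Control hearts and the other 4 below all of them. In the CCl4 hearts the ratio ran in the reverse order of the summed fibroblast markers, which were 87.9 RPKM in replicate 1, 106 RPKM in replicate 2, 181 RPKM in replicate 4, 257 RPKM in replicate 5, 317 RPKM in replicate 6 and 540 RPKM in replicate 3. In Control hearts, with sums of 80.3 to 214 RPKM, the order was not the reverse, and the part of these cells in the ratio was not tested. On the log2 scale with a pseudocount of 1 the difference was -0.37 (exact permutation p = 0.026, adjusted p = 0.136, lower in 5 of 6 CCl4 hearts than the Control median). The RPKM of Slc25a12 was 2.35 to 3.54 times that of Slc25a13 in CCl4 hearts (median 3.39) and 2.62 to 6.15 times in Control hearts (median 4.34). All CCl4 hearts lay below the Control median, and Control replicate 3 lay within the CCl4 range. The difference was -0.41 (exact permutation p = 0.039, adjusted p = 0.136). The other 5 pairs gave adjusted p-values of 0.216 to 0.762, and no pair passed. The difference for Slc25a25 to Slc25a24 was -0.27 with a pseudocount of 1 and -0.65 with 0.1. Without CCl4 replicate 1 the exact permutation test gave the Slc25a4 pair an adjusted p of 0.0455 (difference -0.45), the lowest of its alternatives, which reached 0.319. Without Control replicate 3 it gave the Slc25a12 pair 0.0152 (-0.53), the lowest of alternatives that reached 0.328.

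**Figure D5:**
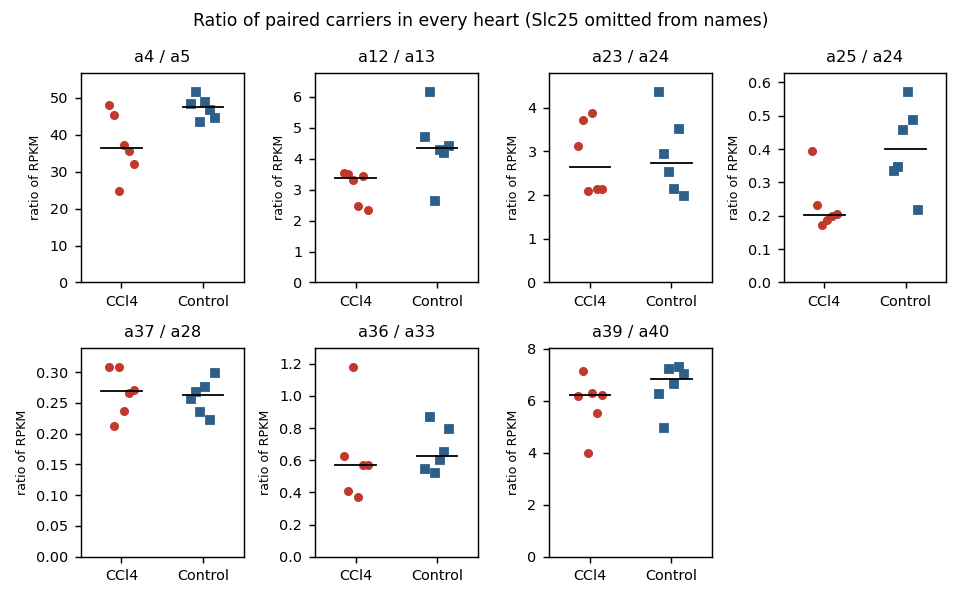
Ratio of RPKM for the 7 carrier pairs (the prefix Slc25 is left out of the panel names), 1 point per heart, CCl4 as circles and Control as squares, with a line at the median; all axes start at 0. Slc25a4 over Slc25a5 is between 24.7 and 47.9 in CCl4 hearts and between 43.5 and 51.5 in Control hearts, and the other panels overlap between groups as well.

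The 11 carriers under the minimum were low throughout. The nearest was Slc25a29, a carrier of arginine and lysine, at 0.5 RPKM or more in 3 of 12 hearts (0.442 ± 0.155 RPKM in CCl4 hearts, 0.397 ± 0.0901 RPKM in Control hearts), followed by Slc25a16 with 1 of 12. Just inside was Slc25a14, with 6 of 12 (0.476 ± 0.117 RPKM in CCl4 hearts and 0.507 ± 0.123 RPKM in Control hearts). Slc25a2, Slc25a18, Slc25a21, Slc25a31, Slc25a41, Slc25a43, Slc25a48, Slc25a53 and Slc25a54 stayed at or below 0.331 RPKM in every heart. They include Slc25a31, the ADP/ATP carrier of germ cells, and Slc25a18, the glutamate carrier paired with Slc25a22.

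Genes that work beside the carriers were read from the same fit, 52 tested of 57 in 6 lists, and 0 passed. The counts below stand against 65.7% of all genes negative and 8.58% lower at an unadjusted p under 0.05, with a median of -0.05. Of the family members with other symbols, the uncoupling protein Ucp3 of muscle spanned 0.768 to 5.45 RPKM in CCl4 hearts and 3.03 to 12.5 RPKM in Control hearts (log2 fold change -1.34, SE 0.36, limma adjusted p = 0.246). Ucp2 was at 3.80 ± 0.898 RPKM in CCl4 hearts and 5.26 ± 1.41 RPKM in Control hearts (limma adjusted p = 0.422), while Ucp1, the uncoupling protein of brown fat, stayed under the minimum. Among 11 tested genes of the import route that inserts carriers into the inner membrane, all 11 were negative with a median of -0.10, and 1 had an unadjusted p under 0.05. This was Timm9, a chaperone of the space between the membranes, at 5.18 ± 0.463 RPKM in CCl4 hearts and 6.21 ± 0.367 RPKM in Control hearts (limma adjusted p = 0.319). Of 16 other inner membrane transporters 8 were negative, 8 positive and 0 had an unadjusted p under 0.05. They include the pyruvate carrier subunits Mpc1 (30.7 ± 4.08 RPKM in CCl4 hearts, 29.8 ± 3.24 RPKM in Control hearts) and Mpc2 (7.84 ± 1.07 and 8.81 ± 1.23 RPKM). Of 12 enzymes beside the carriers 11 were negative and 2, Cpt1b and Cpt2, had an unadjusted p under 0.05. The positive one was Got1, the cytosolic transaminase of the malate-aspartate shuttle, at 41.2 ± 12.3 RPKM in CCl4 hearts and 38.9 ± 5.57 RPKM in Control hearts. Of the 3 outer membrane pores 3 were negative and 0 had such a p, and of 6 haem and citrulline genes Alas2 alone did.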

How the data were processed

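Messenger RNA of 12 hearts was sequenced, 6 per group; groups and replicate numbers come from the sample titles. Per the labels' protocols, TRIzol was used to isolate RNA and the library kit keeps strand. The submitters' processing notes name GRCm38, Trimmomatic 0.36 and featureCounts (Subread 1.5.1). The aligner, annotation release and strand setting are not given in the sources used here. Deposited by the authors was RPKM for 31722 symbols, 1 column per heart. P-values refer to the spread between these samples.

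Exon lengths and coordinates (1-based, GRCm38) came from GENCODE M21, which matched 30270 symbols. With them the RPKM worth of a read was sought in each library. Of values up to 30 such steps, 93.6% to 95.1% were whole to within 0.05, and 72.5% to 77.2% of these were even, so totals are relative depths.

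Genes at 0.5 RPKM or more in at least 6 libraries were tested with limma 3.58.1 in R 4.3.3 (lmFit, eBayes with a trend, log2(RPKM + 1), no covariate), with Benjamini-Hochberg adjustment and a threshold of 0.05. Carriers were read from that fit. Values across hearts are given for the 6 carriers of highest mean and the 10 of smallest p, and means for the rest; 1 kept carrier enters the counts but is not reported here by name. Up to 4 genes of each related list could be named. A few other carriers and hearts were singled out after their values were seen. The members, lists, pairs and motifs were chosen with earlier results of these data known. The scripts were tested on simulated data. Tables and plots were made in Python 3.11.15 (numpy 2.4.6, matplotlib 3.10.9, pandas 2.3.3). Alternatives covered pseudocount, filter, scaling, array weights, robust fitting, a replicate block and each library left out. Leaving out both libraries numbered 1, or the 2 richest in atrial markers, was chosen after seeing the data.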

Additional observations from a re-analysis of the deposited data

Results flagged for a closer look

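In 6 of the 86 groups of 6 hearts examined (36 carriers and 7 ratios, in both groups), 1 heart lay apart from the rest of its group: the gap to its nearest neighbour, as a share of the range, was above Dixon's 95% critical value. Chance flags about 1 group in 20.

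CCl4 replicate 3 was low for Slc25a4 (572 RPKM, other CCl4 hearts 869.7 to 1045 RPKM; gap share 0.628), for Slc25a3 (24.0 RPKM, others 37.8 to 44.6 RPKM; 0.669) and for Slc25a20 (3.73 RPKM, others 5.74 to 6.53 RPKM; 0.716). CCl4 replicate 1 was low for Slc25a44 (1.21 RPKM, others 1.61 to 1.82 RPKM; 0.654). Control replicate 1 was low for Slc25a34 (9.87 RPKM, other Control hearts 14.1 to 15.7 RPKM; 0.723), and Control replicate 6 for Slc25a38 (1.96 RPKM, others 2.49 to 2.69 RPKM; 0.726).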

How the results depend on the processing

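The count of carriers lower at an unadjusted p under 0.05 (9) was 10 with TPM scaling, 11 with array weights, 4 of 20 with a filter at a mean of at least 2 RPKM (9.82% of all genes tested), 5 with median-of-ratios scaling, 5 with quantile normalization, 5 with scaling without mitochondrially encoded RNA and 7 to 9 with a heart left out. With a heart left out 835 to 2004 of all 14087 genes were lower at that p. The most were without CCl4 replicate 3, where 8 of 36 carriers were lower. The carriers higher (0) were 1 with scaling without mitochondrially encoded RNA, 2 with array weights and 0 to 1 with a heart left out. Of all 14087 genes 127 to 546 were higher at that p with a heart left out. Carriers called at an adjusted p (0 of 36) were 9 of 36 with limma's array weights (16% of all genes, 2249, were called). They were 2 of 36, Slc25a22 and Slc25a42, without both libraries numbered 1 (323 genes, 2.29%). The count over all genes (0) was also 3 with TPM scaling, 1 without the libraries richest in atrial markers and 0 to 47 with a heart left out, the highest without CCl4 replicate 1 (31 without Control replicate 1). The cause of these changes was not tested. Same-numbered hearts match in sex by Xist and Ddx3y, but do not deviate together throughout (r from -0.474 to 0.232), so the number was not taken as a pairing. The replicate block, which also takes up sex, left 7 lower carriers (19.4% of 36, against 6.15% of all genes) and called 0.

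Of the pair ratios, Slc25a4 to Slc25a5 was -0.45 to -0.26 and Slc25a12 to Slc25a13 -0.53 to -0.33 with a heart left out. Slc25a23 to Slc25a24 (-0.05) was -0.14 to 0.0484 with a heart left out (the highest without Control replicate 1) and 0.0264 without both libraries numbered 1, where Slc25a37 to Slc25a28 (0.05) was -0.00595. Slc25a5 (0.06) was -0.0131 with TPM scaling and -0.00382 without the libraries richest in atrial markers. Slc25a11 (-0.02) was 0.0461 with median-of-ratios scaling, 0.0593 with quantile normalization, 0.0719 with scaling without mitochondrially encoded RNA, 0.0518 with array weights and -0.11 to 0.12 with a heart left out. Among the 23 other carriers, log2 fold changes ran from -0.18 to 0.24, and 8 kept their sign in all alternatives. Low carriers rest on few reads, which limits their precision.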
